A study of Mus musculus with 6 samples.

Results

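The genes described here are 10 regulators and effectors of the step between epithelial and mesenchymal cell states, chosen by symbol from the 25899 genes of a nascent RNA count table. They are the classical cadherin genes Cdh1, Cdh2 and Cdh3, the epithelial adhesion gene Epcam, the transcription factor genes Twist1, Snai1, Snai2, Zeb1 and Zeb2, and the collagen gene Col1a1. All 10 were in the table and all 10 passed the filter on low counts that left 13869 genes for testing, Twist1 and Col1a1 only through their counts after treatment.

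The cells were mouse embryonic stem cells of the E14tg2a strain on a 129SV background, and both groups carried the stably expressed cRAF-ErT2 cassette, through which 4OHT (4-hydroxytamoxifen) activates ERK signalling. Both groups were grown in serum with LIF and 2 µM Chir99021, a GSK3 inhibitor, and then spent 24 h in serum with LIF and 250 nM PD173074, an FGF receptor inhibitor. The untreated group had 3 libraries, 1 from each of clones a, b and c, and the treated group had 3 libraries from the same clones after 2 h in 250 nM 4OHT. Ethynyl uridine at 5 mM for 15 min before RNA isolation marked RNA made in that window, which was then captured and sequenced. No library holds cells without the cassette given 4OHT, so effects of 4OHT itself and of ERK cannot be told apart, and what the clones share beyond the cassette is not given.

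Epithelial cells hold together through E-cadherin, the product of Cdh1, whose extracellular repeats bind the same protein on the next cell and whose tail binds catenins. In an epithelial-mesenchymal transition, zinc-finger factors of the Snail family (Snai1, Snai2), the ZEB factors and the basic helix-loop-helix factor Twist1 shift cells from Cdh1 towards N-cadherin (Cdh2) and matrix genes such as Col1a1. Snail and ZEB factors repress Cdh1 by binding E-box sequences in its promoter. Embryonic stem cells in culture are epithelial and carry E-cadherin and EpCAM at their surface, and the transition takes place in the embryo at gastrulation.

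Levels are given as CPM, which are counts scaled by library size with TMM factors, and the values of 3 libraries stand in the order of clones a, b and c. Total counts were 9745747 to 12168380 untreated and 7295334 to 9431819 after 4OHT. Clone c stood apart from the others: its untreated library differed from those of a and b with a chi-square per gene of 10.9 and 11.4, against 2.45 between a and b, and results that rest on it are given with and without it. None of 10 stem cell markers was at 0 in any library, and their summed level was 2629 to 2743 CPM untreated and 2108 to 2507 CPM after 4OHT. By the edgeR test given below, 3 of these markers rose and 4 fell, Nanog among the latter. Of all tested genes 28.5% rose and 28.6% fell.

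Under edgeR's quasi-likelihood test, 4 of the 10 genes rose after 4OHT and none fell. Twist1, Col1a1, Epcam and Cdh2 rose, so that an epithelial adhesion gene and mesenchymal genes went up in the same libraries. Cdh1, Cdh3, Snai1, Snai2, Zeb1 and Zeb2 did not pass an adjusted p of 0.05. At an unadjusted p below 0.05 the count of lower genes was also 0, as it was with DESeq2 and limma-voom at the adjusted threshold. Over all tested genes 57.1% were called, 28.5% higher and 28.6% lower, so 4 of 10 called is no more than the share in the whole table. All 4 rose by at least 1 on the log2 scale (6.83% of genes did). Twist1 and Col1a1 rose by at least 2 (2.07%) and by at least 3 (0.779%), and Twist1 by at least 5 (0.231%). Twist1 and Col1a1 passed the filter only through their treated counts, so these shares are no even background for them. The share of higher and lower genes depends on scaling, since scaling by library size alone lowered log2 fold changes by a median of 0.20 relative to TMM scaling. By library size the same test called 58.3% of genes, 17.4% higher and 41.0% lower, and of the 10 it called 4 higher and 2 lower (Cdh3 and Zeb2). With clone as a block it called 6 of the 10 higher and none lower, against 34.1% and 33.3% of all genes. In bulk RNA of this kind, a change in the share of cells that transcribe a gene and a change per cell cannot be told apart.

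Promoter windows from RefSeq (GRCm38.p6) are shown for Twist1 and Epcam, which rose, and for Snai1, which did not pass the test. Each is the 250 bases before an annotated start, read 5′ to 3′ on the strand of the gene, and capitals mark E-boxes of the type bound by Snail and ZEB factors (CACCTG on either strand). The Twist1 window is chr12:33957421-33957670, the Epcam window chr17:87635729-87635978 and the Snai1 window chr2:167537945-167538194, all on the plus strand.
Twist1: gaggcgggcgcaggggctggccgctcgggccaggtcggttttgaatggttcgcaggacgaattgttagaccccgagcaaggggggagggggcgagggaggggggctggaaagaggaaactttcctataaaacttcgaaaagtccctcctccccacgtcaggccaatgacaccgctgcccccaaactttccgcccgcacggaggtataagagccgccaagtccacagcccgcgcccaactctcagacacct
Epcam: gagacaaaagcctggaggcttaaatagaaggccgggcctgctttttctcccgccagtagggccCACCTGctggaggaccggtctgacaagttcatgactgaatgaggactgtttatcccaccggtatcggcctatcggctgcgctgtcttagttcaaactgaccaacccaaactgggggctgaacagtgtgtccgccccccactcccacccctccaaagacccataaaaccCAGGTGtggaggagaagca
Snai1: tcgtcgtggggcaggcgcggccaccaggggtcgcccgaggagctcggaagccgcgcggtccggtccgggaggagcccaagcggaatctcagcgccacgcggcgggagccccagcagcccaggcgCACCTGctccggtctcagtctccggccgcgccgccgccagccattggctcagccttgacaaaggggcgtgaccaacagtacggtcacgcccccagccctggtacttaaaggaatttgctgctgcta

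The Epcam window held 2 matches to CACCTG, which begin 187 and 19 bases before the start, and the Snai1 window held 1, which begins 126 bases before it. Of 32841 promoter windows of the same length, 17.2% held at least 1 such match. The Twist1 window held none. None of the 3 windows matched TGANTCA (AP-1, 6.75% of all windows), CCGGAA (ETS, 12.03%), GCGTGGGCG (EGR, 0.536%) or a CArG box (1.47%), all searched on both strands. The wider E-box pattern CANNTG, which includes CACCTG, matched at the same places only and is found in 66.2% of windows. GC content was 62.4% in the Twist1 window, 56.4% in that of Epcam and 70.0% in that of Snai1. Of 4 Zeb2 windows searched in the same way, 1 held 2 AP-1 matches, which begin 189 and 132 bases before its start. The other 3, among them 2 that share most of their bases, held no match to any of the 6 patterns. No window of Cdh1, Cdh2, Cdh3, Snai2, Zeb1 or Col1a1 is reported here. The matches given describe letters and were not tested for binding.

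Twist1 (chromosome 12, 33957671 to 33959829, GRCm38) encodes a basic helix-loop-helix factor that pairs with E proteins and drives mesenchymal programmes. Its level was 0.561, 0.152 and 0.784 CPM in the untreated libraries and 15.8, 19.1 and 19.4 CPM after 4OHT. Every treated library lay far above every untreated one. Its log2 fold change was 5.21 ± 0.29 (SE, edgeR adjusted p = 3.5e-07, 3 libraries per group). Among 13869 tested genes, which Twist1 joined only through its treated counts, the rise stood at rank 25. The untreated libraries held 17 Twist1 counts in all against 425 after treatment, so its size is loosely set: the depth-scaled ratio of summed counts was 37.9 with a 95% exact counting interval of 23.4 to 65.6.

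The genes nearest to Twist1 in pattern, by the root mean square difference of centred log2 CPM over the 6 libraries among 11326 candidates, were Fos (0.34), Nab1 (0.39) and Fosl2 (0.41). Fos and Fosl2 encode AP-1 subunits and Nab1 a corepressor of EGR factors. Their log2 fold changes were 4.98 ± 0.11, 5.15 ± 0.11 and 4.29 ± 0.22.

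Col1a1 (chromosome 11, 94936224 to 94953042) encodes the alpha 1 chain of type I collagen, the main fibrillar collagen of connective tissue. It was measured at 0.0802, 0.304 and 0.392 CPM in the untreated libraries and at 3.08, 1.98 and 3.65 CPM after 4OHT. The groups did not overlap, but the untreated libraries held only 9 counts between them and the treated ones 68. Col1a1 rose by a log2 fold change of 3.45 ± 0.45 (edgeR adjusted p = 0.00010), and the depth-scaled ratio of summed counts was 11.4 (95% exact counting interval 5.68 to 26.1). Col1a2, whose chain joins that of Col1a1 in type I collagen, had 3 counts before and 5 after treatment, too few to test, and Col3a1 had 4 and 0.

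Epcam (chromosome 17, 87635979 to 87651129) encodes a membrane glycoprotein of epithelia that is also a surface marker of pluripotent cells. Its nascent level was 89.3, 83.7 and 90.5 CPM before treatment and 292, 272 and 309 CPM after 4OHT. The spread within each group was small (coefficient of variation 4.09% and 6.27%), and the groups lay far apart. Its log2 fold change of 1.73 ± 0.07 (edgeR adjusted p = 4.9e-08), a 3.31-fold rise with a 95% interval of 2.97 to 3.69, is the most precisely set of the 10. Single clones gave 1.71, 1.70 and 1.77.

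Cdh2 (chromosome 18, 16588877 to 16809246) encodes N-cadherin, the classical cadherin of neural and mesenchymal cells. It had 8.10, 8.35 and 9.02 CPM before treatment and 17.5, 21.0 and 20.9 CPM after 4OHT. All treated libraries were above all untreated ones. Its log2 fold change was 1.22 ± 0.12 (edgeR adjusted p = 2.0e-05). Its span overlaps the antisense gene Gm15485, and as the strand setting of the counting is not given, reads of both could be counted together.

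**Figure D1:**
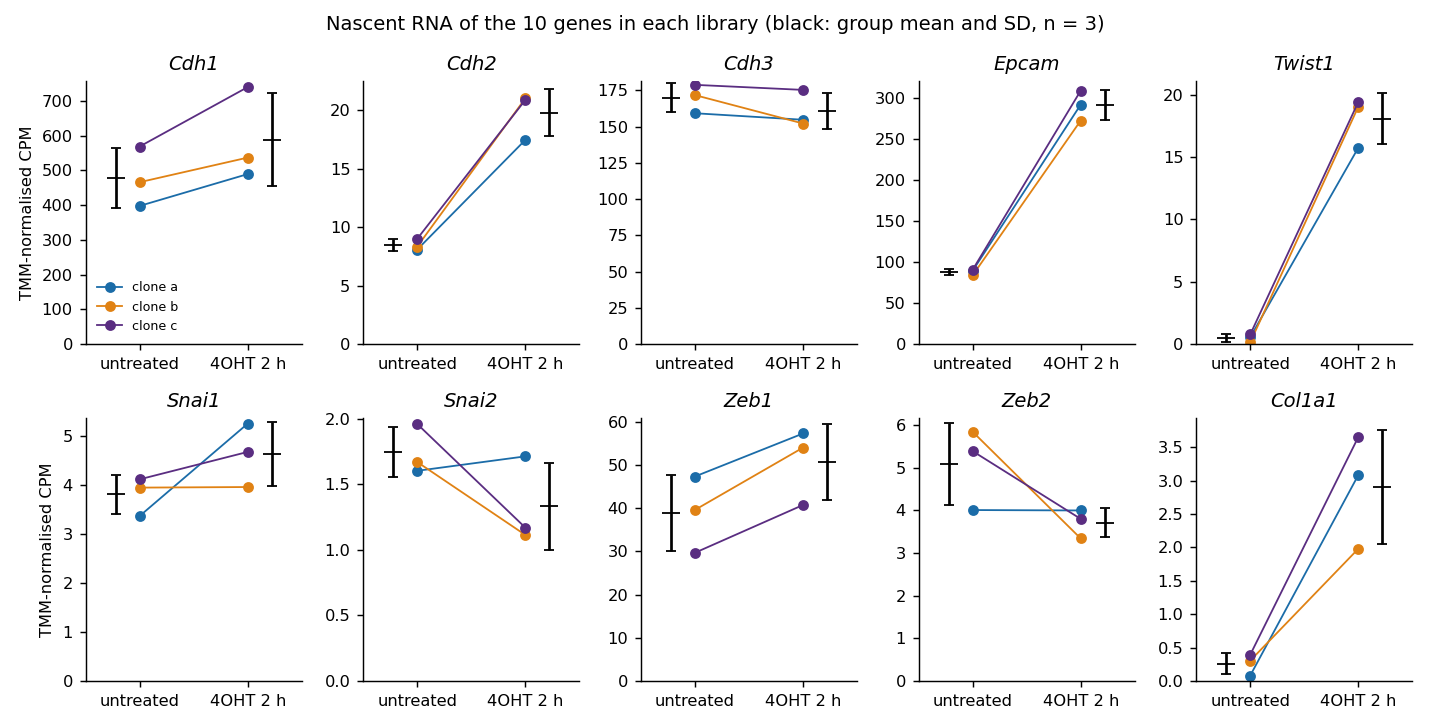
TMM-normalised CPM (linear axes from 0) of each gene, untreated and after 2 h of 4OHT, with 1 line per clone and the group mean and SD (n = 3) in black. The groups lie far apart for Epcam, Cdh2, Twist1 and Col1a1, while for Cdh1 and Zeb1 the clones are spread more widely than the shift within each clone.

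Cdh1 (chromosome 8, 106603351 to 106670246) was the most highly transcribed cadherin of the 3 before and after treatment. Its level was 398, 466 and 569 CPM before treatment and 490, 537 and 740 CPM after 4OHT. The treated level was above the untreated one within every clone, but the groups overlapped because clone c was high and clone a low in both. Without a clone term the log2 fold change was 0.30 ± 0.16 (95% interval -0.05 to 0.66; edgeR adjusted p = 0.13). With clone as a block, which compares the treated with the untreated library of the same clone, it was 0.29 ± 0.04 and was called (adjusted p = 8.2e-06), but scaling by library size under the same block gave 0.10 with an adjusted p of 0.060. The block fit called 67.4% of all genes. A fall of Cdh1 was not seen under any setting tried, the log2 fold changes over all of them being 0.10 to 0.43.

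Zeb1 (chromosome 18, 5591860 to 5775467), a zinc-finger and homeodomain repressor of epithelial genes, showed a like pattern. It had 47.4, 39.6 and 29.7 CPM before treatment and 57.3, 54.1 and 40.8 CPM after 4OHT. Each clone was higher after 4OHT, and here clone c was the low one in both groups. The log2 fold change of 0.38 ± 0.17 missed the threshold (edgeR adjusted p = 0.072) and was called with clone as a block (0.38 ± 0.07, adjusted p = 6.2e-05), also when that fit was scaled by library size (0.18, adjusted p = 0.027). Its span overlaps the opposite-strand transcript Gm10125, which could share its reads.

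Zeb2 (chromosome 2, 44983632 to 45117395), its paralogue, lay lower and pointed the other way. It had 4.01, 5.85 and 5.39 CPM before treatment and 4.00, 3.34 and 3.80 CPM after 4OHT. The ranges did not overlap, though untreated and treated clone a were almost level. The log2 fold change of -0.45 ± 0.21 was not called (edgeR adjusted p = 0.089), nor with clone as a block (-0.44, adjusted p = 0.068), but it was by library size (-0.65, adjusted p = 0.020) and by upper-quartile scaling (-0.55, adjusted p = 0.044). The span of Zeb2 overlaps the antisense gene Zeb2os. With Twist1, Col1a1, Epcam and Cdh2, Zeb2 made 5 of the 10 genes whose groups did not overlap, against 63.3% of all tested genes.

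Cdh3 (chromosome 8, 106510891 to 106557297) encodes P-cadherin and stands upstream of Cdh1 on the same strand, with 46.1 kb between them. Its levels were 159, 172 and 179 CPM before treatment and 155, 152 and 175 CPM after 4OHT, and the groups overlapped. Cdh3 had a log2 fold change of -0.08 ± 0.08 (95% interval -0.25 to 0.09; edgeR adjusted p = 0.38), which bounds any rise to 1.06-fold under this scaling. By library size it was -0.28 with an adjusted p of 0.0092.

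Snai1 (chromosome 2, 167538195 to 167542814), the founding Snail repressor of Cdh1, had 3.37, 3.95 and 4.12 CPM before treatment and 5.25, 3.96 and 4.68 CPM after 4OHT. The groups overlapped, and clone b hardly moved. The log2 fold change was 0.29 ± 0.19 (edgeR adjusted p = 0.23), with a 95% interval of -0.14 to 0.72. The upper end of that interval is a 1.64-fold rise, on 136 untreated and 110 treated counts. Snai2 (Slug; chromosome 16, 14705852 to 14709385) had 1.60, 1.67 and 1.96 CPM before treatment and 1.71, 1.11 and 1.17 CPM after 4OHT. Clone a was slightly higher and the other clones lower, with a log2 fold change of -0.36 ± 0.29 (95% interval -0.999 to 0.28; edgeR adjusted p = 0.32) on 62 and 32 counts. The 5 transcription factor genes did not move as a group: Twist1 rose, and the other 4 were not called without a clone term. Of their relatives, Twist2 had 5 and 18 counts over the 2 groups and Snai3 had 0 in every library, too few to test.

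**Figure D2:**
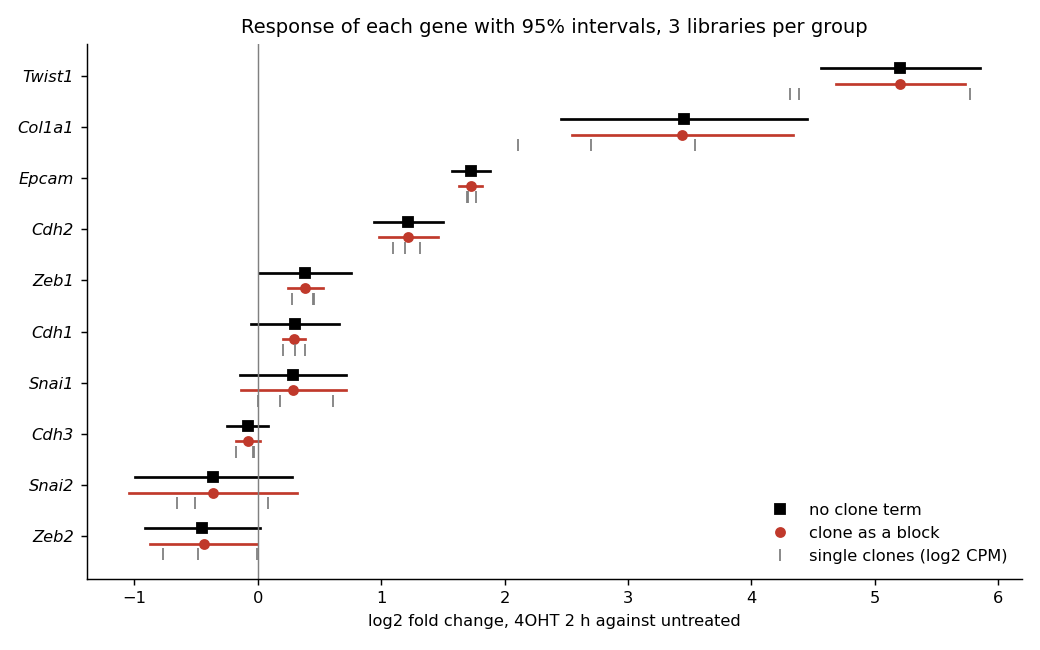
Log2 fold change of each gene after 2 h of 4OHT with its 95% interval, without a clone term (black) and with clone as a block (red), and grey ticks for single clones (differences in log2 CPM). The intervals of Twist1, Col1a1, Epcam and Cdh2 lie above 0 in both fits, and those of Cdh1 and Zeb1 narrow with the block.

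Levels can be compared between genes only per length, and the sources do not say which part of each gene was counted. Per kb of exon, untreated cells gave 104 ± 18.8 CPM (SD, n = 3) for Cdh1, 40.0 ± 1.64 for Epcam and 38.8 ± 2.26 for Cdh3. Below them came Zeb1 (3.79 ± 0.863), Snai1 (2.35 ± 0.243), Cdh2 (1.05 ± 0.0589), Snai2 (0.863 ± 0.0939), Twist1 (0.306 ± 0.197), Zeb2 (0.255 ± 0.0480) and Col1a1 (0.0394 ± 0.0245). Among neighbours in this order, the library ranges of Epcam and Cdh3 overlapped, as did those of Twist1 and Zeb2. Cdh1, Epcam and Cdh3 held the top 3 places, while Cdh2 was below Zeb1 and Snai1.

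After 4OHT the order per kb of exon was Epcam (132 ± 8.31 CPM), Cdh1 (129 ± 29.1), Cdh3 (36.7 ± 2.90), Twist1 (11.1 ± 1.24), Zeb1 (4.94 ± 0.855), Snai1 (2.86 ± 0.400), Cdh2 (2.46 ± 0.250), Snai2 (0.659 ± 0.164), Col1a1 (0.443 ± 0.130) and Zeb2 (0.186 ± 0.0169). Epcam and Cdh1 overlapped, as did Snai1 and Cdh2, and Snai2 and Col1a1. Twist1 moved from the eighth place to the fourth. Per kb of gene span, only 5 of the untreated and 3 of the treated genes kept these places, since Twist1 (2.16 kb) is short and Zeb1 (184 kb) and Cdh2 (220 kb) are long.

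A ratio of 2 genes within a library does not depend on how libraries are scaled. The ratios of the 2 groups were compared without pairing libraries by clone. Over 7 pairs the smallest p that an exact two-sided permutation test can give with 3 against 3 libraries is 0.10, or 0.175 after adjustment over the pairs, so none can pass. The Epcam to Cdh1 ratio rose 2.70-fold on average (log2 change 1.43, in 3 of 3 clones, exact permutation p = 0.10) and the Cdh2 to Cdh1 ratio 1.89-fold (0.92, 3 of 3 clones, exact permutation p = 0.10). That of Twist1 to Cdh1 changed by 5.01 on the log2 scale in the same way (exact permutation p = 0.10). The ratio of Snai2 to Snai1 was lower after 4OHT by a log2 difference of -0.66 without overlap of the groups (exact permutation p = 0.10).

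The 2 tandem cadherin genes diverged within every clone. The log2 ratio of Cdh3 to Cdh1 changed by -0.34, -0.38 and -0.41 in clones a, b and c, a mean of -0.38, although the groups overlapped because the clones differ in level (exact permutation p = 0.20). The log2 ratio of Zeb2 to Zeb1 changed by -0.27, -1.24 and -0.95 in the 3 clones (exact permutation p = 0.20). That of Zeb1 to Cdh1 changed by -0.02, 0.24 and 0.08, with no shared direction (exact permutation p = 0.80).

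**Figure D3:**
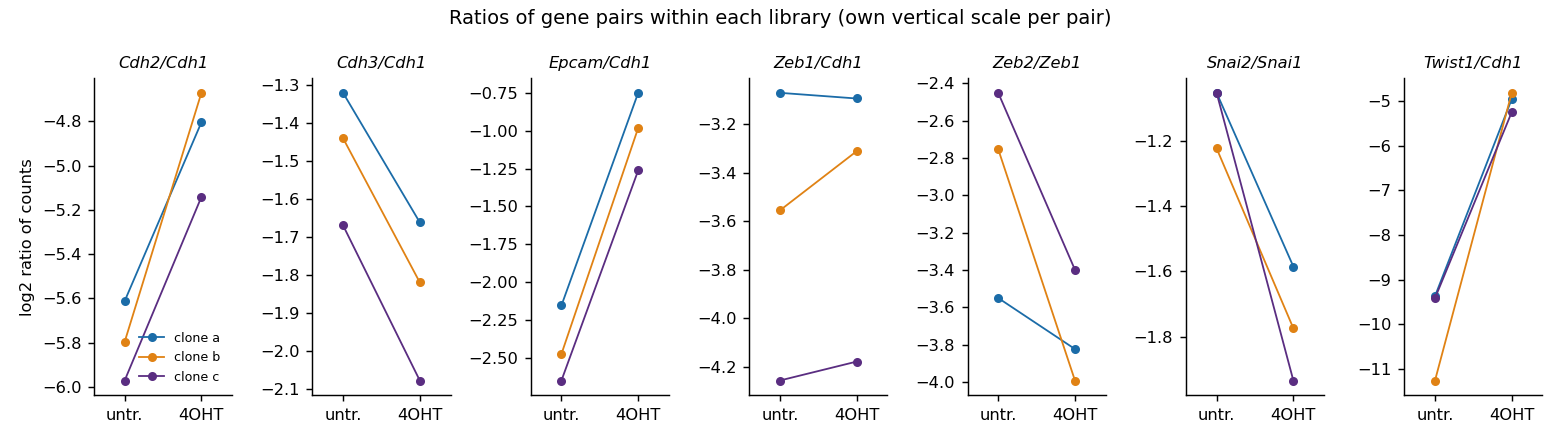
Log2 ratio of the counts of 2 genes within each library, untreated and after 4OHT, 1 line per clone and a separate vertical scale for each pair. The Cdh3 to Cdh1 lines run almost parallel downwards (-0.34 to -0.41) at different heights.

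In a joint test of clone beside treatment, 2 of the 10 genes differed between clones, against 12.6% of all tested genes. Cdh1 was 0.18 and 0.56 higher on the log2 scale in clones b and c than in clone a (edgeR adjusted p = 5.6e-06), and Zeb1 changed by -0.18 and -0.59 in the same contrasts (adjusted p = 0.00040). Cdh3 gave 0.05 and 0.17 (adjusted p = 0.10).

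Cdh1 and Cdh3 lie on chromosome 8, and that chromosome as a whole differed between the clones. The median of its 694 tested genes was 0.16 higher in clone b and 0.40 higher in clone c than in clone a, and 57.2% of them passed the clone test. On the other 19 chromosomes the medians lay between -0.02 and 0.02 for clone b and between -0.06 and 0.01 for clone c, and 8.25% to 16.2% of genes passed. The 3 genes most like Cdh1 over the 6 libraries, by the same measure as for Twist1, were Heatr3 (0.02), Tnpo2 (0.03) and Trmt1 (0.04), all 3 on chromosome 8. The part of chromosome 8 in the Cdh1 levels was not tested. Chromosome 18, which holds Zeb1, had medians of 0.00 and -0.06. The treatment response of chromosome 8 had a median of -0.08, against -0.06 to 0.11 on the others.

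**Figure D4:**
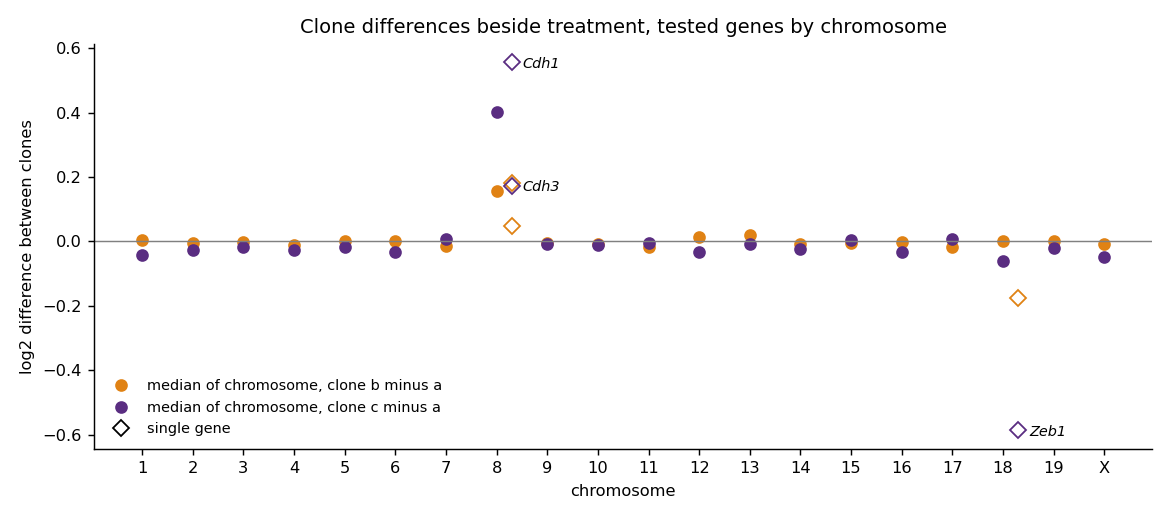
Median log2 difference of clones b and c from clone a over the tested genes of each chromosome (filled circles), with Cdh1, Cdh3 and Zeb1 as open diamonds. Chromosome 8 stands at 0.16 and 0.40 while the other chromosomes lie near 0, and Cdh1 lies above and Zeb1 far below the medians of their chromosomes in clone c.

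Without both libraries of clone c, the test called 6 of the 10 genes higher and 1 lower (of all genes, 60.4% were called, 29.6% higher and 30.8% lower). The added calls were Cdh1 (0.22, edgeR adjusted p = 0.0078), Zeb1 (0.33, adjusted p = 0.0058) and, downwards, Cdh3 (-0.14, adjusted p = 0.046). 

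Markers of fibroblasts and feeder cells, which make Twist1 and Col1a1, were followed as well. The 15 markers summed to 61.9 to 68.5 CPM untreated and 53.2 to 63.3 CPM after 4OHT, with most of it in Fstl1. Lum, Postn and S100a4 were at 0 in all libraries, and Dcn had 6 and 0 counts. Of 6 tested, none was higher under edgeR (also 0 at an unadjusted p below 0.05, and 0 with DESeq2 and limma-voom) and 3 were lower: Fbln2 (-1.56), Pdgfrb (-0.91) and Fstl1 (-0.27). Fbln2 and Pdgfrb, with 20 and 21 treated counts, passed the filter on low counts only through the untreated group. Over all tested genes 28.5% were higher and 28.6% lower. The other 9 markers were too low to test, and the part of such cells in the levels of Twist1 and Col1a1 was not tested.

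The wider gene groups around these 10 are given beside all tested genes, of which 28.5% rose and 28.6% fell (17.4% and 41.0% by library size). These groups were chosen with earlier results of these data known, and what that choice adds to their shares was not tested. Of 23 tested cadherins and protocadherins outside the 10, 7 rose (30.4%) and 6 fell (26.1%), near the shares over all genes; their median log2 fold change was 0.10, that of all genes 0.00 (5 and 8 by library size, median -0.10). Cdh4 (R-cadherin) rose from 10.7 ± 0.981 to 38.2 ± 4.86 CPM (1.83 ± 0.12), Cdh9 fell from 12.3 ± 1.99 to 2.96 ± 0.607 CPM (-2.06 ± 0.20), and Pcdh19 (-2.63 ± 0.30) and Celsr3 (-0.56 ± 0.11) fell too. Pcdh19, with 12 treated counts, passed the filter only through the untreated group. The other 11 were too low to test.

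Of 19 catenins and other adherens junction genes, 6 rose and 6 fell, 31.6% each way against 28.5% and 28.6% of all genes (median 0.06; 5 and 6 by library size, median -0.14). Ctnna1 (alpha-catenin, which overlaps Lrrtm2) rose from 471 ± 28.9 to 828 ± 31.1 CPM (0.81 ± 0.07). Ctnnb1 (beta-catenin, which overlaps Ulk4; 0.59), Ctnnbip1 (0.55), Jup (0.46), Vcl (0.38, overlapping Ap3m1) and Adam10, a protease that sheds cadherins (0.26, and 0.06 by library size), were the other rises. Among those that fell were the adhesion receptor gene Nectin2 (-0.89 ± 0.08) and the p120-catenin relatives Pkp4 (-0.58 ± 0.06) and Ctnnd2 (-0.66 ± 0.08). Ctnna2 (-0.73 ± 0.18, overlapping Lrrtm1 and other genes) and Plekha7 (-0.46 ± 0.11) fell too.

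Among 39 tested epithelial junction and identity genes, 19 were higher (48.7%, against 28.5% of all genes) and 10 lower (25.6%, against 28.6%; median 0.32; 18 and 13 by library size, median 0.13). Dsp (desmoplakin), which anchors desmosomes to intermediate filaments, rose from 40.0 ± 2.42 to 177 ± 18.6 CPM (2.15 ± 0.09) and Ppl (periplakin) from 7.16 ± 0.209 to 41.8 ± 6.09 CPM (2.55 ± 0.13). Marveld2 (tricellulin) rose by 1.74 ± 0.15 and the protease inhibitor gene Spint2 by 0.70 ± 0.06. The desmosomal cadherins Dsg2 (-0.58) and Dsc2 (-1.07) fell.

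Of 22 tested factors and partners of the transition, 7 were higher (31.8%, against 28.5% of all genes) and 3 lower (13.6%, against 28.6%; median 0.33; 5 and 5 by library size, median 0.13). Id2, whose product sequesters E proteins, fell from 39.7 ± 8.84 to 7.19 ± 1.24 CPM (-2.47 ± 0.19), while its relative Id3 rose by 1.59. The E protein genes Tcf3 and Tcf12, whose products pair with TWIST1, rose by 0.39 and 0.29 (0.19 and 0.09 by library size). The E protein gene Tcf4 had a log2 fold change of -0.25 ± 0.10 and was not called (edgeR adjusted p = 0.054), but it was with clone as a block (adjusted p = 3.8e-05). Ajuba (-1.18 ± 0.09) and Klf8 (-1.12 ± 0.12) fell, and Runx2 (2.77 ± 0.30, overlapping Supt3), Hand1 (2.41) and Kdm1a (0.36, overlapping Luzp1) rose. Hand1, with 15 untreated counts, passed the filter on low counts only through the treated group.

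Mesenchymal effectors and matrix genes were higher in 13 and lower in 7 of 27 tested, or 48.1% and 25.9% against 28.5% and 28.6% of all genes (median 0.28; 11 and 8 by library size, median 0.08). The matrix glycoprotein gene Sparc rose by 2.58 ± 0.11 on the log2 scale and the intermediate filament gene Vim by 2.96 ± 0.24. The collagen prolyl hydroxylase gene P4ha1 rose by 0.83 ± 0.07. The collagen gene Col5a1 was also among the 13 that rose, from 21.5 ± 5.41 to 104 ± 25.6 CPM (2.28 ± 0.19). Fibronectin (Fn1), a standard mesenchymal marker, fell from 492 ± 71.4 to 187 ± 45.6 CPM (-1.39 ± 0.16). The basement membrane collagens Col4a1 (-1.63) and Col4a2 (-1.24), a divergent pair whose spans overlap, fell too, as did Mmp14 (-0.82), Serpinh1 (-0.83), Col5a2 (-1.44; tested only through its untreated counts) and Pdgfrb.

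In the TGF-beta pathway, which induces the transition in many epithelia, 10 of 19 tested genes were higher and 5 lower, or 52.6% and 26.3% against 28.5% and 28.6% of all genes (median 0.27; 7 and 6 by library size, median 0.07). The ligand Tgfb1 rose from 7.11 ± 1.35 to 33.3 ± 5.05 CPM (2.23 ± 0.16) and the receptor Tgfbr2 from 4.75 ± 0.760 to 28.0 ± 4.88 CPM (2.56 ± 0.17). The signal transducer Smad3 fell from 49.0 ± 2.45 to 11.5 ± 1.51 CPM (-2.10 ± 0.11), and the repressor Skil rose by 1.39 ± 0.07. Smad6 (-1.24), Ltbp3 (-0.94), Bambi (-0.59) and Ski (-0.32) were the other falls.

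**Figure D5:**
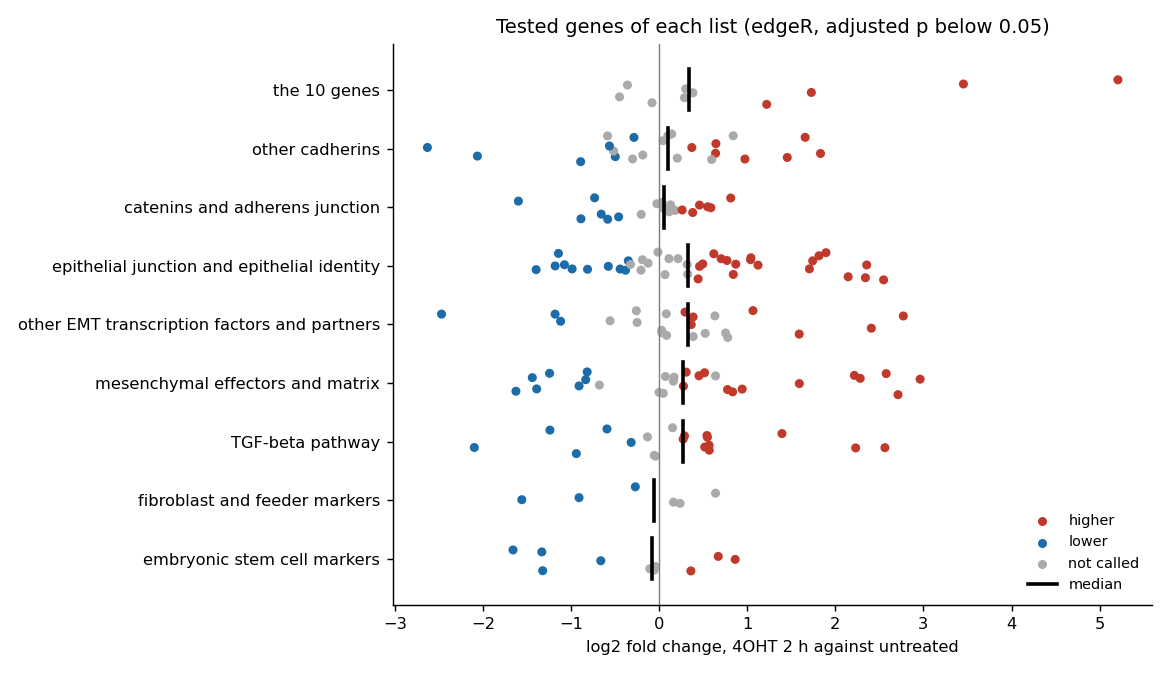
Log2 fold change of every tested gene of the 10 and of each wider list, red for higher, blue for lower and grey for not called (edgeR adjusted p of 0.05), with the median of each list as a black bar. Each list except the fibroblast markers holds called genes on both sides of 0 or, for the 10 genes, above it only.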

How the data were processed

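The deposited table holds raw read counts per gene symbol for 6 nascent RNA libraries, with no normalization by the authors. STAR, featureCounts and mm10 are listed per the submitters' processing notes; the sources used here give no version, counted region, strand setting or treatment of shared reads. Columns were tied to samples by time and clone letter. Symbols were placed with GENCODE M21 (GRCm38), where 25618 were found once. Of the list symbols, 2 were matched through older names (Tbxt as T, Ccn2 as Ctgf).

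Genes were kept by filterByExpr (minimum count 10, total 15), scaled by TMM and tested with edgeR 4.0.16 in R 4.3.3 (glmQLFit, glmQLFTest, 3 against 3 libraries, no clone term), with Benjamini-Hochberg adjustment over 13869 genes. Standard errors were taken as the absolute log2 fold change over the root of the F statistic. A prior count of 2 entered log2 CPM, and 0.5 was added to counts in ratios, which were compared by exact permutation tests (SciPy 1.17.1). The script was tested on simulated data. The alternatives included DESeq2 1.42.0 and limma 3.58.1. Depth leaves a floor of 3 counts, or 0.247 to 0.411 CPM; counting intervals cover counting error only.

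Pairing comes from the clone letters, as each clone gave 1 library per group; same-clone libraries deviated together from their group means (correlation 0.282 for clone a, 0.165 for b and 0.357 for c). Clones are taken as replicates, and nothing more is said of separate cultures, so a p-value here reflects only how these libraries vary.

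The 10 genes and the lists were chosen with earlier results of these data known. Named genes are the 10, up to 4 tested genes of each list by smallest adjusted p, called genes that account for a count, the 3 genes most like Cdh1 and Twist1, and flanking tested genes. Dsg2, Dsc2, Tcf4, Col1a2, Col3a1, Col5a1, Twist2 and Snai3 were named after their values were seen. Ccn1 and the miR-200 and miR-205 genes were not analysed here, and some genes that the rule names are not reported here.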

Additional observations from a re-analysis of the deposited data

How the results depend on the processing

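The rises of Twist1, Col1a1, Epcam and Cdh2 kept their direction and their call under all 20 alternatives, with log2 fold changes of 4.70 to 5.62, 2.97 to 3.84, 1.53 to 1.78 and 1.02 to 1.31. Snai1 (0.09 to 0.42) and Snai2 (-0.66 to -0.23) were called under none.

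With clone as a replicate block, Cdh1 (0.29 with edgeR, 0.30 with DESeq2) and Zeb1 (0.38 and 0.39) were called, and 6 of the 10 genes were higher. Under the block scaled by library size, an alternative chosen after seeing the data, Cdh3 (-0.28), Zeb1 (0.18) and Zeb2 (-0.64) were called. In that fit 2 of the 10 were lower, and of all genes 2938 were higher and 6569 lower. It called 17 of the factors and partners of the transition, against 10 in the main fit. By library size alone Cdh3 (-0.28) and Zeb2 (-0.65) were called, and 2 of the 10 were lower. Of all genes 2407 were then higher and 5684 lower, against 3953 and 3968 in the main fit. By upper quartile Zeb2 (-0.55) was called, the 1 lower gene of the 10, while of all genes 3152 were higher and 4756 lower. With no filter Zeb1 (0.38) was called.

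Leaving out both libraries of clone c called Cdh1 (0.22), Zeb1 (0.33) and Cdh3 (-0.14), the 1 lower gene. Leaving out 1 library gave 0.11 to 0.43 for Cdh1 (called without untreated clone c, adjusted p = 0.039), 0.21 to 0.55 for Zeb1 (called without untreated clone a, 0.017, or treated clone c, 0.020) and -0.60 to -0.33 for Zeb2 (called without untreated clone a, 0.037), with 0 to 1 of the 10 lower. It gave -0.22 to 0.43 for the log2 ratio of Zeb1 to Cdh1, which changed sign, and 1 to 3 called fibroblast markers. Those markers numbered 1 with DESeq2 with or without the block and 1 at an adjusted p below 0.01, and 0 without clone a. Other cadherins called numbered 8 without clone a and 8 at an adjusted p below 0.01, against 13. Over all genes, 2958 were higher and 3020 lower without clone a, and 3058 and 2964 at an adjusted p below 0.01. The main fit gave 3953 and 3968, and DESeq2 3581 and 3386 (3700 and 3284 with the block). Leaving out 1 library gave 3469 to 3964 lower genes over the whole table. Of the places by level per length, 5 untreated and 3 treated were kept by gene span. The cause of these shifts was not tested. Low counts limit Snai2, Col1a1 and untreated Twist1.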

Other observations

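Tested genes that flank some of the 10 on their chromosomes moved in various directions. Next to Twist1, the histone deacetylase gene Hdac9, 87.8 kb away on the opposite strand, fell from 37.9 ± 1.71 to 17.4 ± 1.72 CPM (log2 fold change -1.13 ± 0.10, SE, edgeR), while Twistnb, 516 kb away on the other side, was level at 90.5 ± 1.71 and 90.3 ± 6.46 CPM. Calm2, a calmodulin gene 189 kb from Epcam, rose by 0.61 on the log2 scale. Ppp1r9b, 38.0 kb from Col1a1, rose by 0.83. On the far sides of the Cdh3 and Cdh1 pair, Zfp90, 84.3 kb from Cdh3, fell from 18.6 ± 3.80 to 9.58 ± 2.47 CPM (-0.97 ± 0.20), and Tango6, 12.8 kb from Cdh1, was not called (-0.18 ± 0.11, edgeR adjusted p = 0.18).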
